A study of Mus musculus with 22 samples.

Results

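The libraries compared here hold RNA pulled down with tagged ribosomes of outer hair cells from the cochleae of adult mice, 3 immunoprecipitation (IP) libraries at 10 weeks and 2 at 6 weeks. They were chosen by their titles and ages alone, and make up 5 of the 22 libraries of the series. All 49671 gene rows of the deposited tables were considered, of which 18737 had enough reads to be tested, with 1 CPM (counts per 1000000 reads of the library) or more in 2 or more of the 22 libraries. The question is how far the pulldown profile of the adult cochlea holds between these ages.

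Every mouse in both age groups was PrestinCreERT2/+;RiboTagHA/+. The prestin locus (Slc26a5) drives a Cre recombinase that tamoxifen activates, and Cre then switches on a haemagglutinin tag on the ribosomal protein Rpl22. Tamoxifen was dosed by age, at 3 mg per 40 g of body weight below 21 days and at 9 mg per 40 g from 21 days on. The age at injection is not given for single libraries, and no group without Cre or without tamoxifen entered the comparison. Each IP library has an input library of whole cochlear RNA with the same age and number, 3 at 10 weeks and 2 at 6 weeks, which were used as the background. The study calls its replicates independent biological samples and does not say how many mice a library pools.

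Outer hair cells amplify sound by changing length, through the membrane motor protein prestin, and they are inhibited by efferent nerve fibres acting on an acetylcholine receptor built from the Chrna9 and Chrna10 subunits. The mechanotransduction channel sits at the tips of their stereocilia, which are held by tip links and cross-linked actin. The organ of Corti of the mouse is functionally mature well before either age, and a pulldown of tagged ribosomes is meant to enrich the RNA that these cells translate. In a bulk library, fewer cells of a type and less RNA per cell cannot be told apart.

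Total reads ran from 30757875 to 45825067 per IP library and from 33170715 to 47064448 per input library at these ages. Of the total, 23.0% and 27.3% fell outside annotated genes in the 6-week IP libraries, against 47.7%, 36.0% and 41.0% in the 10-week IP libraries 1 to 3. The means were 25.2 ± 3.07% (SD, n = 2) and 41.6 ± 5.86% (SD, n = 3), and the libraries did not overlap (exact permutation test over the 5 libraries, two-sided, p = 0.1, the smallest that 3 against 2 allows). In input the share lay between 11.1% and 14.2% at both ages. Reads aligned to several places took 12.5% and 12.6% at 6 weeks and 7.95% to 8.49% at 10 weeks in IP (exact permutation test, two-sided, p = 0.1). Among the inputs, 6-week replicate 2 stood apart, with 35.0% of reads aligned to several places, where the others had 19.1% to 23.4%. The predicted gene Gm42418 took 18.6% of its gene reads, against 3.62% to 5.93% in the others. That library is 1 of the 2 inputs at 6 weeks. Between 15359 and 15609 genes had a CPM of at least 1 in each of the 5 IP libraries.

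The 10-week IP replicate 1 stood apart from the other 4 IP libraries. Over the tested genes its log2 values correlated with those of replicates 2 and 3 with a Pearson r of 0.934 and 0.932, where replicates 2 and 3 correlated with each other with an r of 0.973. Replicates 2 and 3 at 10 weeks were about as close to 6-week replicate 1 (0.953 and 0.950) as the 6-week replicates were to each other (0.954), and less close to 6-week replicate 2 (0.928 and 0.926). Replicate 1 at 10 weeks was farther from both 6-week libraries (0.886 and 0.853). These correlations are across genes, which are not independent replicates. It was the lowest of the 5 IP libraries for 6593 genes (35.2%) and the highest for 3918 (20.9%), and the called genes and the list medians are given with and without it.

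Few genes passed the test between the ages. On log2(CPM + 1), limma's moderated test with Benjamini-Hochberg adjustment called 10 of 18737 genes (0.0534%) at an adjusted p under 0.05, of which 1 was higher (0.00534%) and 9 were lower (0.048%) at 10 weeks. At an unadjusted p under 0.05 there were 1271 genes (6.78%), 469 higher (2.5%) and 802 lower (4.28%). The median gene stood at -0.15 log2 as deposited (-0.02 with trimmed-mean, TMM, scaling), so all log2 changes below are given relative to the median gene and carry the standard error of the limma fit. The p-values beside them test the change of each fit before its median is taken off. With TMM scaling 56 genes were called, 15 higher and 41 lower, with quantile normalization 278, 130 higher and 148 lower, and with CPM taken over gene reads 13, 3 higher and 10 lower. Count tests on the whole reads recovered from the CPM values called 44 genes with edgeR (4 higher) and 348 with DESeq2 (164 higher).

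The counts also differed with the libraries fitted. The fit on all 22 libraries includes 3 low-yield libraries of younger ages, in which fewer than 12000 genes reached 1 CPM. Without them 456 genes were called, 112 higher and 344 lower. With only the 10 libraries of 6 and 10 weeks, 2063 genes were called (11%), 677 higher (3.61%) and 1386 lower (7.4%), and all 10 genes of the wider fit were among them. The fit without 10-week IP replicate 1 called 2 genes.

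The number of genes held also differed between the fits. The 95% interval of the change as deposited lay within 2-fold either way for 365 genes (1.95%) and wholly outside 2-fold for 69, 8 of them higher and 61 lower. The held genes had a median level of 0.147 CPM over the 5 IP libraries, and none of them exceeded 2.09 CPM, so that they are genes near the pseudocount and not the main profile. Of 968 genes with a mean of at least 100 CPM, none was held by this criterion. The estimate itself lay within 2-fold for 725 of the 968 (74.9%), but the typical standard error was 0.64. In the fit of the 10 libraries of 6 and 10 weeks the typical error of these abundant genes was 0.31 and 275 of them (28.4%) were held within 2-fold, as were 6496 of all genes (34.7%).

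The largest separations were those of 2 genes annotated as microRNAs. Mir6236 (ENSMUSG00000098973, chromosome 9, 110281287 to 110281409 on GRCm38) stood at 43.9 and 67.3 CPM in the 6-week IP libraries and at 0.145, 0 and 0.0908 CPM in the 10-week ones. It fell by 5.53 on the log2 scale (SE 0.78, limma adjusted p = 4.84e-06). Gm24187 (ENSMUSG00000088609, chromosome 13, 9834469 to 9834525) stood at 0.152 and 0.0218 CPM at 6 weeks and at 62.4, 64.5 and 43.2 CPM at 10 weeks, a log2 change of 5.86 (SE 0.80, limma adjusted p = 4.84e-06).

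Neither difference was particular to the pulldown. In input Mir6236 was at 144 and 512 CPM at 6 weeks and at 0.229, 0.1 and 0.181 CPM at 10 weeks, and Gm24187 at 0.446 and 0.75 against 120, 81.4 and 118 CPM. Across the series, Mir6236 lay between 15.1 and 908 CPM in the other 16 libraries and at no more than 0.229 CPM in the 6 libraries of 10 weeks. Gm24187 did not exceed 6.14 CPM in those 16 and was at least 43.2 CPM in the 6. They were the sole genes of 18737 whose 10-week libraries, IP and input together, lay at least 5-fold beyond every other library after 1 CPM was added to the lower side. Both are shown because they mark the 10-week libraries as a set: the annotated Gm24187 transcript is 57 bases long with 71.9% G and C, and in the mature miR-6236 the seed (bases 2 to 8) is in capitals, on chr9:110281353-110281371, plus strand, from RefSeq on GRCm38.p6.
Gm24187: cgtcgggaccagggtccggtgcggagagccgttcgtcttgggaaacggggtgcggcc
mmu-miR-6236: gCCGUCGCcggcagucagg

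Whole-cochlea input was compared between the ages in the same way. limma called 18 genes in input (0.0961% of those tested), 13 higher (0.0694%) and 5 lower (0.0267%), among 283 (1.51%) at an unadjusted p under 0.05. The split was 11 higher and 10 lower with TMM scaling, and edgeR called 9, all lower. Of the 18 genes, 13 were annotated as pseudogenes, a class that makes up 6.42% of the tested genes. For 14 of the 18 the IP libraries separated in the same direction, where those of 14.9% of all genes separated higher and 28.8% lower. Rpl17-ps10, a processed pseudogene of a ribosomal protein gene that was picked after its values were seen, rose in input from 5.84 and 6.49 CPM to 94.4, 93.7 and 107 CPM, and stood in IP at 1.82 and 2.49 against 19.2, 15.3 and 18.6 CPM. Reads of a pseudogene and of its near-identical parent can be assigned to either, so these values are uncertain. Whether the 10-week libraries were sequenced or aligned differently is not given in the sources used here, and age and such a difference cannot be told apart.

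The other 8 called genes were lower at 10 weeks, and most of them are best known from neurons. Celf4, an RNA-binding protein of neurons (ENSMUSG00000024268, chromosome 18, 25477632 to 25754157), stood at 135 and 436 CPM at 6 weeks and at 6.38, 29.1 and 21.6 CPM at 10 weeks, and fell by 3.68 on the log2 scale (SE 0.68, limma adjusted p = 0.0017). Elavl3 (chromosome 9, 22015005 to 22052023), another neuronal RNA-binding protein, was at 147 and 282 CPM against 11.3, 25.1 and 35.6 CPM (log2 -3.02, SE 0.67, limma adjusted p = 0.0236). Gap43 (chromosome 16, 42248442 to 42340651), a protein of growing axons and the called member of the 13 spiral ganglion neuron markers, was at 98.8 and 57.0 CPM against 0.667, 13.8 and 7.75 CPM (log2 -3.51, SE 0.81, limma adjusted p = 0.0429). For each of them every 6-week library lay above every 10-week library.

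Gabra6 and Cbln3 are genes of cerebellar granule neurons, a GABA-A receptor subunit and a secreted synaptic organizer. Gabra6 (chromosome 11, 42306437 to 42321072) was at 88.7 and 26.2 CPM at 6 weeks and at 0.58, 1.24 and 2.21 CPM at 10 weeks (log2 -4.31, SE 0.89, limma adjusted p = 0.012). Cbln3 (chromosome 14, 55878913 to 55884392) was at 72.0 and 35.2 CPM against 1.07, 1.17 and 3.51 CPM (log2 -4.08, SE 0.87, limma adjusted p = 0.0154). Both were highest in 6-week replicate 1, and in both the ages did not overlap.

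Kcnk3 (chromosome 5, 30588170 to 30625271) encodes an acid-sensitive potassium leak channel. It was at 80.9 and 67.7 CPM at 6 weeks and 1.04, 4.88 and 10.5 CPM at 10 weeks (log2 -3.71, SE 0.76, limma adjusted p = 0.0102). Ptchd1 (chromosome X, 155573455 to 155623814), a membrane protein of the brain, was at 7.05 and 13.8 CPM against 0.13 to 0.363 CPM (log2 -3.02, SE 0.59, limma adjusted p = 0.00349). Pkib (chromosome 10, 57631981 to 57741112), an inhibitor of protein kinase A, was at 12.3 and 7.83 CPM against 0.484 to 0.813 CPM (log2 -2.59, SE 0.61, limma adjusted p = 0.0429). The naming rule adds 3 neuronal or brain genes that did not pass: Nrxn3, a presynaptic adhesion molecule (log2 -3.09, limma adjusted p = 0.0507), Tmem178 (-3.23, adjusted p = 0.0773) and Rbfox3, the NeuN antigen (-2.79, adjusted p = 0.0799; 0.0101 with TMM scaling).

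**Figure D1:**
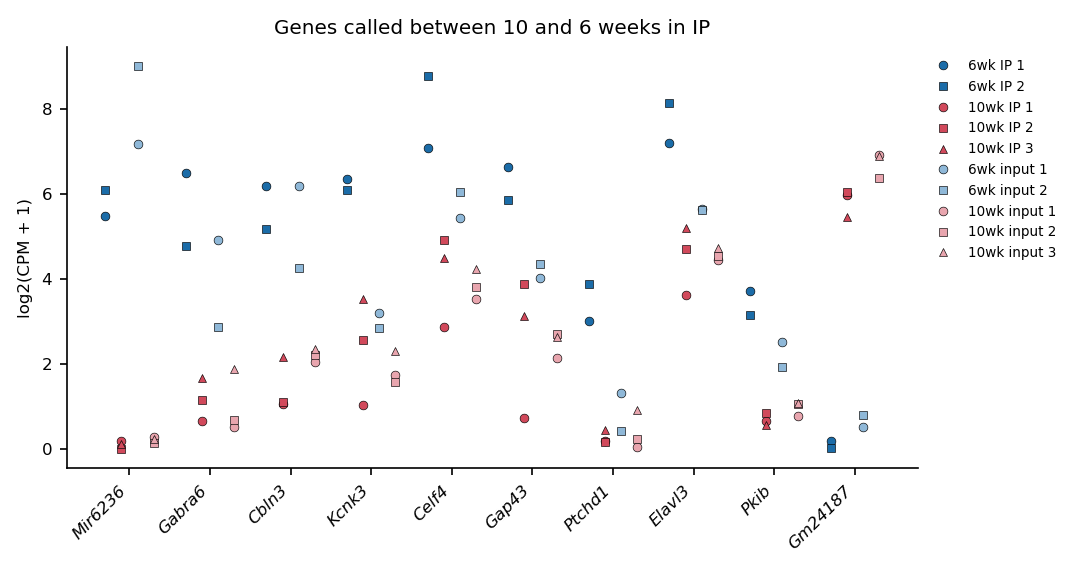
Level of the 10 genes called between the ages, as log2(CPM + 1), in each of the 5 IP libraries (dark) and 5 input libraries (pale); marker shape gives the replicate number. The 6-week IP libraries lie above the 10-week ones in 9 genes and below them in Gm24187, and the input libraries of the ages separate the same way in all but Ptchd1.

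Outside Mir6236 and Gm24187, no call survived the removal of 10-week IP replicate 1, although every estimate stayed in the same direction. Without it Celf4 stood at log2 -3.12 (limma adjusted p = 0.165), Gabra6 at -4.10 (0.288), Cbln3 at -3.93 (0.283), Kcnk3 at -3.09 (0.306) and Gap43 at -2.63 (0.732). Elavl3 stood at -2.62 (limma adjusted p = 0.393), Ptchd1 at -3.03 (0.0876) and Pkib at -2.62 (0.301), while Mir6236 at -5.62 and Gm24187 at 5.74 were still called (both 0.000151). Leaving out 6-week IP replicate 1 ended the calls of Gabra6, Cbln3, Kcnk3, Gap43, Elavl3 and Pkib. Leaving out 6-week IP replicate 2 ended those of Cbln3, Kcnk3, Celf4, Gap43, Ptchd1, Elavl3 and Pkib. The count test of edgeR did not call Gabra6, Gap43, Ptchd1 or Pkib.

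The neuronal RNAs that were higher at 6 weeks were also in the 6-week input. Gabra6 was at 29.1 and 6.31 CPM in the 6-week input and at 0.43 to 2.71 CPM in the 10-week input. Celf4 was at 42.2 and 65.5 CPM against 10.5 to 17.8 CPM, and Cbln3 at 72.2 and 18.0 CPM against 3.15 to 4.1 CPM. The input libraries of the ages separated in the same direction for 7 of the 8 genes, Ptchd1 being the exception. Of all genes, 7.01% were lower in input in this way. None of the 8 passed the limma test of the change of enrichment, which no tested gene passed. Younger libraries held several of these RNAs too, as their IP values at postnatal days 14 and 28 show. Celf4 ran from 61.9 to 162 CPM, Elavl3 from 36.3 to 141, Kcnk3 from 31.4 to 93.6 and Gap43 from 14.8 to 25.9. All of these values lay above every 10-week IP library. Gabra6 ran from 0 to 24.2 CPM, Cbln3 from 0.651 to 17.8, Ptchd1 from 0.093 to 8.12 and Pkib from 0 to 2.38.

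A list of 15 cerebellar neuron genes, drawn up after these values were seen and so given without a test, summed to 963 and 354 CPM in the 6-week IP libraries and to 146, 125 and 153 CPM in the 10-week ones. In input it summed to 544 and 187 CPM against 81.0, 97.2 and 126 CPM. A list of 15 forebrain and olfactory bulb neuron genes, drawn up the same way, was highest in 6-week replicate 2, reaching 690 in the pulldown and 283 in whole cochlea on the same scale, where 6-week replicate 1 held 171 and 120. At 10 weeks it ran from 53.8 to 151 CPM in IP and from 43.0 to 117 CPM in input. The defining member Gad1, which makes the transmitter GABA, was at 35.9 and 262 CPM in IP at 6 weeks and at 8.17 to 18.9 CPM at 10 weeks.

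Markers of central glia were also higher at 6 weeks. The 6 markers summed to 88.1 and 98.9 CPM in IP at 6 weeks and to 15.8, 41.9 and 31.8 CPM at 10 weeks, and in input to 135 and 148 CPM against 26.9, 43.8 and 78.0 CPM. Mobp, a myelin protein of oligodendrocytes, was at 47.0 and 42.5 CPM against 8.29, 9.14 and 11.5 CPM in IP. A list of 8 pituitary hormone genes, also drawn up after the values were seen, summed to 498 CPM in the IP library of 10-week replicate 3 and to 2810 CPM in its input. The other IP libraries of these ages ran from 2.55 to 30.7 CPM and the other input libraries from 7.92 to 79.3 CPM. The part that RNA of other tissues has in the differences between the ages was not tested.

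Genes of the outer hair cells themselves had no call among them. Of 15 outer hair cell markers, 4 had all 10-week IP libraries above both 6-week ones and 3 had them below, where 14.9% and 28.8% of all tested genes did. Their median change was 0.35 (0.39 with TMM scaling, 0.09 without 10-week IP replicate 1). Summed, they stood at 596 and 555 CPM at 6 weeks and at 958, 613 and 667 CPM at 10 weeks in IP, and at 193 to 286 CPM in input. At 10 weeks 11 of the 15 had every IP library above every input library, and at 6 weeks 9 had, against 23.2% and 39.4% of all genes.

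Prestin itself had the largest estimate among the markers. Slc26a5 (ENSMUSG00000029015, chromosome 5, 21810655 to 21865604) stood at 11.5 and 0.0655 CPM in the 6-week IP libraries and at 53.1, 36.8 and 17.5 CPM at 10 weeks. Input was at 5.35 and 2.74 CPM at 6 weeks and at 6.88, 6.12 and 6.21 CPM at 10 weeks. The change of 3.35 (SE 0.91) did not pass the limma test (adjusted p = 0.164). The 6-week IP replicate 2 held 3 reads of prestin, a level below that of its own input, whereas each 10-week library lay above all input libraries. The same locus drives the Cre.

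The efferent receptor subunits and oncomodulin had the next estimates that separated the ages. Chrna9 was at 4.22 and 1.94 CPM at 6 weeks and at 29.0, 9.62 and 12.1 CPM at 10 weeks (log2 2.19, SE 0.88, limma adjusted p = 0.608). Chrna10 was at 6.24 and 7.42 CPM against 34.6, 19.2 and 18.6 CPM (log2 1.78, SE 0.91, limma adjusted p = 0.795). Ocm, the calcium buffer oncomodulin, was at 132 and 111 CPM against 475, 182 and 302 CPM (log2 1.44, SE 0.64, limma adjusted p = 0.735).

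All 4 of these genes were higher in every 10-week library than in either 6-week library and highest in 10-week replicate 1. In the fit of the 10 libraries of 6 and 10 weeks they were the 4 outer hair cell markers called, Slc26a5 with a limma adjusted p of 0.0242, Chrna10 of 0.015, Chrna9 of 0.0179 and Ocm of 0.0334. DESeq2 called Ocm (adjusted p = 0.00941) and not the other 3. Without 10-week replicate 1 their changes were 2.96, 1.46, 1.70 and 1.05. The estimate of Slc26a5 moved further with the 6-week libraries, to 1.65 without 6-week IP replicate 2, which held 3 reads of it, and to 5.06 without 6-week IP replicate 1 (limma adjusted p = 1 and 0.0977). For Chrna9, Chrna10 and Ocm, leaving out either 6-week library gave values from 1.39 to 2.53.

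Other markers were level or lower. Lbh, a transcription cofactor of outer hair cells, was at 83.7 and 83.1 CPM at 6 weeks and at 82.1, 75.7 and 73.7 CPM at 10 weeks, a change of 0.04 (SE 0.63). Kcnn2, the potassium channel that the efferent receptor opens, was at 62.0 and 43.1 CPM against 36.2, 35.2 and 33.4 CPM, and Sri, the calcium-binding sorcin, at 71.3 and 49.6 against 41.6, 40.5 and 33.1 CPM. Lbh, Kcnn2 and Sri were lower in every 10-week library, Lbh by little. Kcnn2 and Sri did not pass the test (limma adjusted p = 0.979 and 0.958).

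The transcription factors among the markers were uneven between replicates. Ikzf2, which keeps outer hair cell identity, was at 49.4 and 69.8 CPM at 6 weeks and at 21.9, 56.6 and 39.7 CPM at 10 weeks. Bcl11b was at 11.3 and 91.7 CPM against 2.81, 18.3 and 4.21 CPM (log2 -2.07, SE 0.92, limma adjusted p = 0.582). Bcl11b is also a gene of forebrain neurons. It was higher in 6-week replicate 2, as the forebrain list was, but so was Ikzf2. The part of RNA from other tissue in its change was not tested. Another 5 markers, Lmod3, Strip2, Aqp11, Dnm3 and Car7, had overlapping ages, with the smallest estimates for Car7 (-0.09) and Dnm3 (0.18). Of the 15 markers, 4 (26.7%) were held within 2-fold in the fit of the 10 libraries, Lbh, Aqp11, Dnm3 and Car7, where 34.7% of all genes were.

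**Figure D2:**
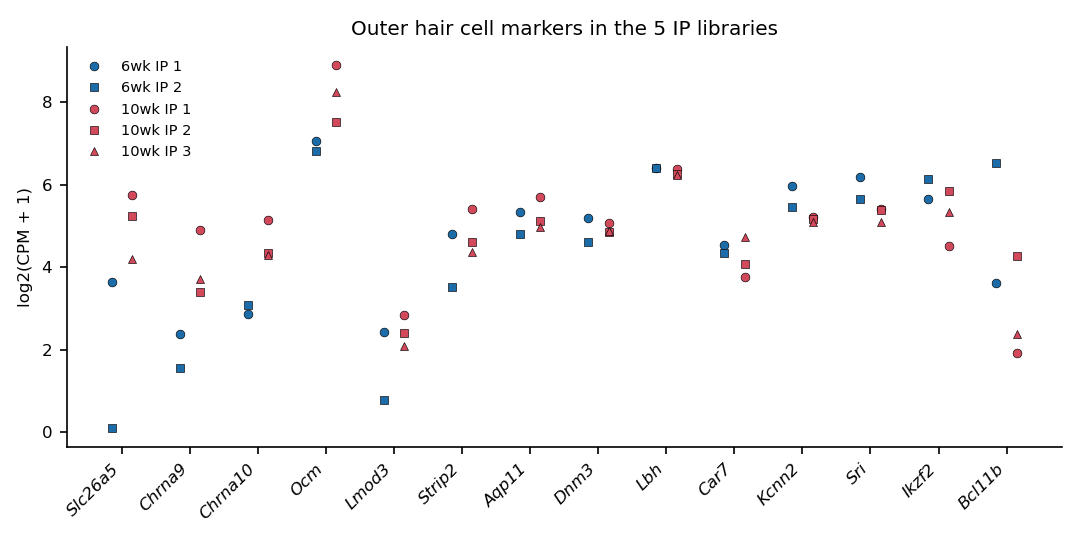
Level of outer hair cell markers in the 5 IP libraries, as log2(CPM + 1), ordered by their change from 6 (blue) to 10 weeks (red); marker shape gives the replicate number. Slc26a5, Chrna9, Chrna10 and Ocm are higher in every 10-week library, whereas the ages overlap or lie close for most of the others.

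Genes of the transduction apparatus and the stereocilia had a higher median than the markers. Of 30 such genes, 15 had non-overlapping ages with 10 weeks higher and 2 with 10 weeks lower, where 14.9% and 28.8% of all genes had. The median change of the list was 0.80 (0.86 with TMM scaling, 0.69 without 10-week IP replicate 1). None was called in the fit of all libraries. The fit of the 10 libraries of 6 and 10 weeks called 9 higher and none lower, where it called 3.61% and 7.4% of all genes.

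The 6 members described next were picked after their values were seen. Myo15, the myosin that lengthens stereocilia, was at 5.13 and 2.09 CPM at 6 weeks and at 18.8, 14.5 and 15 CPM at 10 weeks (log2 2.12, SE 0.83, limma adjusted p = 0.596). Loxhd1, a stereocilia protein required for hearing, was at 4.90 and 6.37 CPM against 29.8, 19.8 and 24.3 CPM, and Ush1c, the scaffold harmonin of the tip-link anchor, at 18.6 and 10.3 against 62.0, 35.3 and 43.0 CPM. Cdh23, a cadherin of the tip link, was at 6.01 and 2.77 CPM against 24.6, 14.7 and 13.1 CPM.

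The channel subunit Tmc1 stood at 8.08 and 9.01 CPM at 6 weeks and at 40.8, 23.1 and 18.9 CPM at 10 weeks (log2 1.66, SE 0.83, limma adjusted p = 0.785). Strc, the stereocilin that joins stereocilia to each other, was at 22.2 and 13.6 CPM against 73.5, 37.1 and 34.2 CPM. In each of these genes the 3 libraries of 10 weeks were above both libraries of 6 weeks.

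The most abundant members did not follow. Rdx, the actin-membrane linker radixin, was at 163 and 170 CPM at 6 weeks and at 79.3, 114 and 102 CPM at 10 weeks (log2 -0.62, SE 0.63, limma adjusted p = 0.925). Triobp, which bundles actin in the rootlets, was at 62.1 and 42.6 CPM against 56.6, 49.4 and 57.9 CPM and was held within 2-fold in the fit of the 10 libraries. Both are expressed in other cell types as well. In input the 30 genes had a median change of 0.01, and 6 had non-overlapping ages, all 6 with 10 weeks higher (31.5% of all genes were higher in this way and 7.01% lower).

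**Figure D3:**
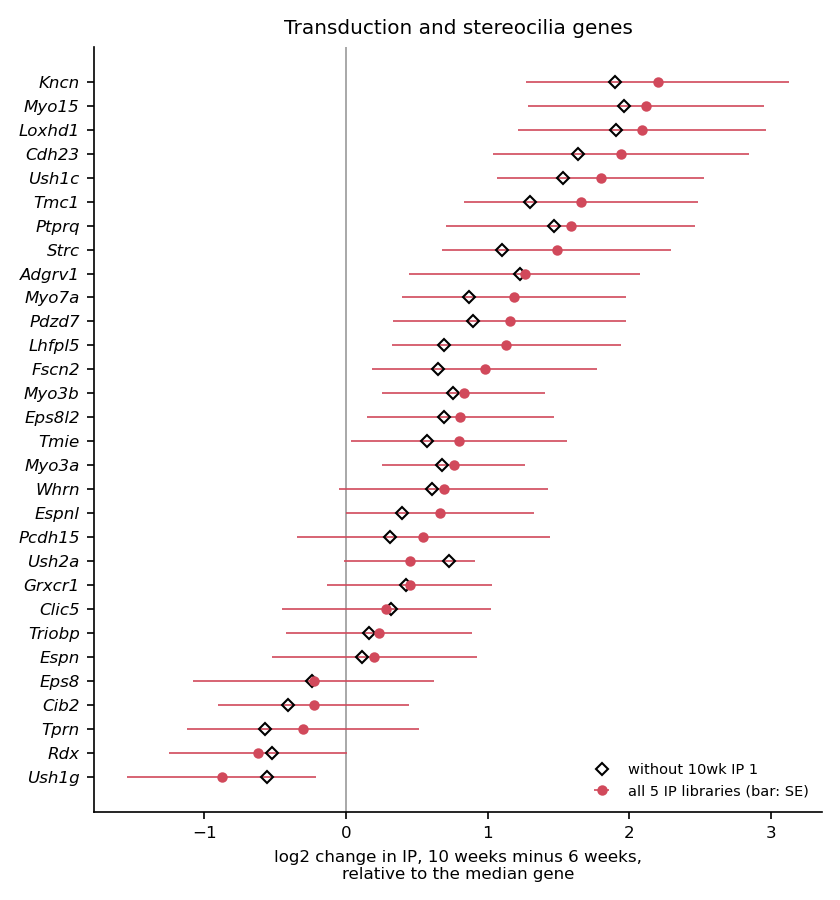
Change of 30 transduction and stereocilia genes in IP from 6 to 10 weeks, in log2 relative to the median gene, with the standard error of the limma fit as bars; open diamonds give the estimate without 10-week replicate 1. Most estimates lie right of 0 with and without that library, and the bars of many reach towards or across 0.

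Other hair cell lists had smaller medians. The 16 shared hair cell markers had a median change of 0.60 (0.50 without 10-week IP replicate 1), with 7 non-overlapping and higher and 3 lower, against 14.9% and 28.8% of all genes. Myo6, the most abundant of them, was at 202 and 164 CPM at 6 weeks and at 356, 224 and 191 CPM at 10 weeks, with overlapping ages. Pvalb, a calcium buffer, was at 41.8 and 51.0 against 35.5, 15.6 and 29.5 CPM, lower in every 10-week library. The 18 channel and synapse genes had a median of 0.55 (0.46 without 10-week IP replicate 1) and the 19 hair cell transcription factors one of -0.15 (-0.04 without it).

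The calcium channel Cacna1d, which triggers release at the hair cell synapse, was at 38.4 and 49.2 CPM at 6 weeks and at 85.3, 58.8 and 61.6 CPM at 10 weeks (log2 0.78, SE 0.67, limma adjusted p = 0.961). The calcium pump Atp2b2 was at 187 and 148 CPM against 131, 121 and 123 CPM and was held within 2-fold in the fit of the 10 libraries. Inner hair cell markers (10 genes) had a median of -0.17 (-0.04 without 10-week IP replicate 1). Calb2, the most abundant of them and also a neuronal gene, was at 154 and 201 CPM against 141, 73.8 and 121 CPM.

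RNAs that stay in the nucleus mostly separated the ages in the pulldown. Of 9 nuclear and untranslated RNAs, 6 had all 10-week IP libraries above both 6-week ones and 2 had them below, where 14.9% and 28.8% of all genes had, with a median change of 1.22 (1.02 without 10-week IP replicate 1) and none called. Malat1 was at 7892 and 13269 CPM at 6 weeks and at 19605, 13921 and 14575 CPM at 10 weeks. Neat1, the scaffold of nuclear paraspeckles, was at 305 and 234 CPM against 936, 863 and 773 CPM (log2 1.82, SE 0.66, limma adjusted p = 0.537), and Miat at 42.7 and 42.0 against 193, 125 and 150 CPM (log2 1.99, SE 0.71, limma adjusted p = 0.509). Kcnq1ot1, an antisense RNA that silences its neighbours and whose reads cannot be told from those of its overlapping gene where strand was not counted, was lower at 10 weeks, at 931 and 898 CPM against 303, 710 and 654 CPM.

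Neat1 and Miat were also higher at 10 weeks in input, at 273 to 408 against 81.4 and 113 CPM and at 36.7 to 46.7 against 15.3 and 17.8 CPM. Malat1 was not, at 2434 and 2976 CPM against 2075 to 3067 CPM. Of the 12 genes on the higher side that the naming rule adds without a call, Rn7sk and Scarna2 are small nuclear RNAs. Rn7sk, the 7SK RNA that restrains transcription elongation, was at 78.2 and 88.2 CPM in IP at 6 weeks and at 499, 414 and 408 CPM at 10 weeks (log2 2.54, SE 0.68, limma adjusted p = 0.164), while input stayed between 68.3 and 95.8 CPM. Scarna2, a guide RNA of Cajal bodies, was at 5.30 and 3.49 CPM against 41.2, 21.4 and 20.1 CPM.

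The share of IP reads outside genes, given above, was highest in the library with the highest Malat1, Neat1, Miat and Rn7sk levels, 10-week replicate 1. Over the other IP libraries it had the same order as Malat1, but not that of Neat1, Miat or Rn7sk. The part of this share in the change was not tested. The other genes that the naming rule adds on the higher side, Carmn, Mamdc4, Klhdc7b, Dnah7b, Psme2, Ccdc171, Cep295nl, Xlr3b (a gene with near-identical copies) and Mx2, stood between 0 and 3.84 CPM at 6 weeks and between 4.52 and 15.1 CPM at 10 weeks, with estimates from 1.68 to 2.58 and limma adjusted p-values from 0.245 to 0.476. Psme2, a proteasome activator, and Mx2, an antiviral GTPase, are induced by interferon. The 12 genes of the interferon response list had a median of 0.38 (0.33 without 10-week IP replicate 1), with 4 non-overlapping and higher and 1 lower, against 14.9% and 28.8% of all genes. In input 9 of them were higher in every 10-week library, against 31.5% of all genes.

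RNAs of embryonic growth were low in 1 library of 10 weeks. The 20 genes, a list taken from an earlier description of these libraries as enriched in the pulldown, include let-7 targets, the insulin-like growth factor Igf2 and the 3 Tnrc6 genes that act with microRNAs in silencing. Their sum was 7097 and 7740 CPM in IP at 6 weeks and 674, 5409 and 4638 CPM at 10 weeks, and 275 to 409 CPM in input. The median change was -1.23 with 10-week replicate 1 and -0.25 without it, and none of the 20 was called. Since the list was chosen on these samples, its enrichment over input is no independent evidence.

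Tnrc6a was at 2188 and 2819 CPM at 6 weeks and at 214, 1489 and 1322 CPM at 10 weeks. Hic2, a transcriptional repressor and, like Igf2, picked after its values were seen, was at 177 and 223 CPM against 6.12, 135 and 117 CPM, and Igf2 at 551 and 309 against 21.2, 465 and 354 CPM. For all 20 genes replicate 1 was below both other 10-week libraries. For 19 of the 20 it was the lowest of the 5, as it was for 35.2% of all genes. Among the 19 with reads in replicate 1, the mean of replicates 2 and 3 was 2.42- to 20.6-fold higher than replicate 1, with a median of 8.41-fold.

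Other abundant RNAs of the pulldown shared this pattern. Sparc, a collagen-binding matrix protein and the most abundant nuclear protein-coding gene at 6 weeks, was at 6877 and 6656 CPM at 6 weeks and at 193, 3643 and 3146 CPM at 10 weeks, while input stayed between 695 and 1037 CPM. Trp53inp1, a p53-induced stress gene, was at 1094 and 1051 CPM against 100, 1021 and 747 CPM. Of 15 immediate early genes, replicate 1 was the lowest of the 5 IP libraries for 13, as it was for 35.2% of all genes. They summed to 1062 and 1167 CPM at 6 weeks and to 123, 625 and 662 CPM at 10 weeks, with a median change of -1.06 (-0.65 without replicate 1). Zfp36, which destabilizes AU-rich RNAs, was at 238 and 273 CPM against 13.6, 150 and 168 CPM, and Dusp1, a phosphatase of stress kinases, at 259 and 203 against 28.3, 167 and 138 CPM.

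**Figure D4:**
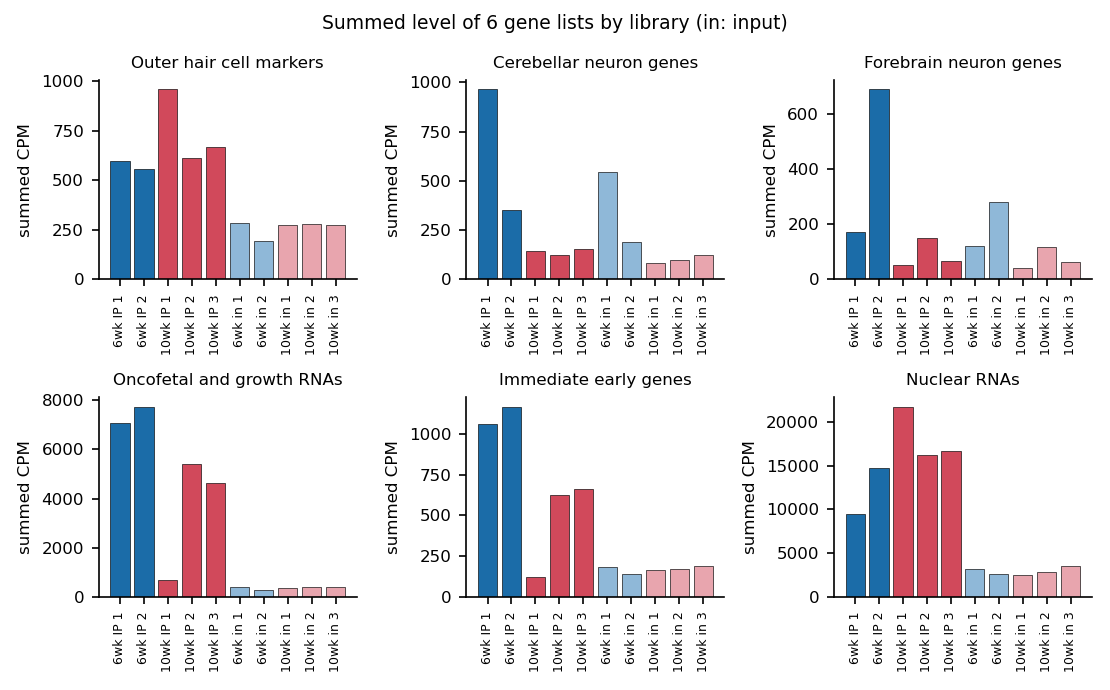
Summed CPM of 6 gene lists in each library of 6 (blue) and 10 weeks (red), IP dark and input (in) pale. The 10-week IP replicate 1 is low in the oncofetal RNAs and immediate early genes and high in the outer hair cell markers and nuclear RNAs. The cerebellar list is high in the 6-week libraries of both fractions, and the forebrain list mainly in 6-week replicate 2.

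Seed matches to let-7 were set beside this difference between libraries as a description, with no test. let-7 is a microRNA family that silences growth genes as tissues mature; a seed match is the reverse complement of bases 2 to 8 of the microRNA, searched on the sense strand of the longest annotated 3′ UTR of 14816 tested genes. For let-7a-5p that heptamer is CTACCTC, found in 1558 of the UTRs (10.5%), and for miR-29a-3p, a regulator of matrix genes, it is TGGTGCT, found in 2298 (15.5%). The mature microRNAs, from RefSeq on GRCm38.p6, are shown with the seed in capitals.
mmu-let-7a-5p: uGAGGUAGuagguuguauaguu
mmu-miR-29a-3p: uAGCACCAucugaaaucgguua

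Genes with a let-7 match had a median difference between 10-week replicate 1 and replicates 2 and 3 that was 0.41 log2 lower than that of genes without one. It was the lowest value of 15 microRNA families compared, followed by miR-29a-3p at -0.36, with the other 13 between -0.34 and -0.21. UTRs with a match are longer (a median of 2364 against 1083 bases for let-7). The 2772 genes with UTRs of at least that length and no let-7 match had a median of -0.23. Genes with a match had a median of -0.31, and all genes without a match one of 0.10. The difference grew with the number of let-7 matches, from -0.27 for 1 match (1362 genes) to -0.48 for 2 (168 genes). It was -1.23 for 3 or more (28 genes), whose UTRs were also the longest. These 28 genes include Hic2, Trim71, Lin28b, Nr6a1, Hmga2 and Igf2bp1 of the growth list. The gradient is therefore not independent of the low levels of that list in 10-week replicate 1.

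Between the other libraries the medians were closer to 0. From 6 weeks to replicates 2 and 3 at 10 weeks, genes with 1, 2 and 3 or more let-7 matches had medians of -0.11, -0.10 and -0.04. Between the 6-week IP replicates they were 0.03, 0.06 and 0.10, and in input 10-week replicate 1 against replicates 2 and 3 gave -0.01, -0.04 and -0.05. For miR-29a-3p the difference within 10 weeks was -0.19, -0.46 and -0.80 with 1, 2 and 3 or more matches. UTR length moves with these medians, and its part beyond the values above was not tested.

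**Figure D5:**
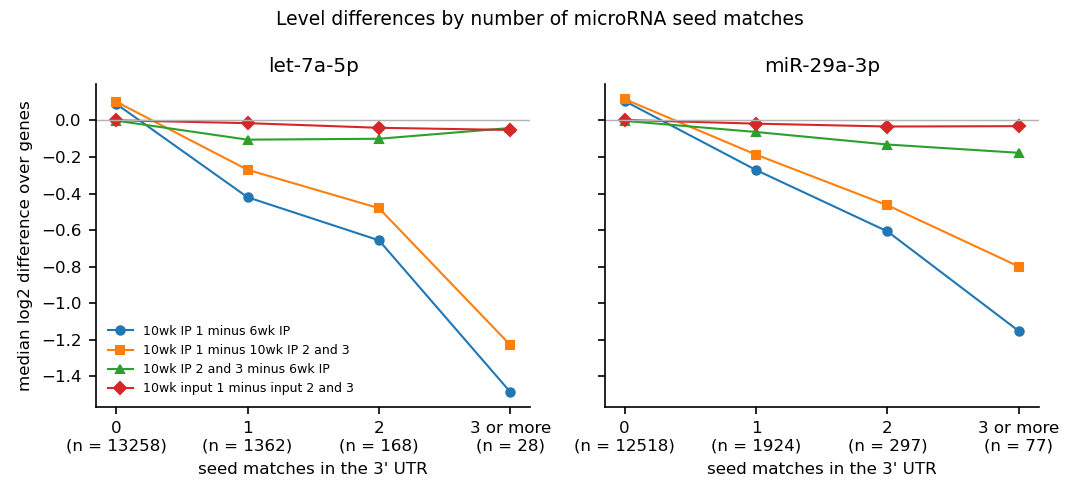
Median log2 difference over genes, relative to each library's median gene, by the number of seed matches in the 3′ UTR for let-7a-5p (left) and miR-29a-3p (right). Both lines that involve 10-week IP replicate 1 fall with the number of matches, and the lines of the other IP libraries and of input stay closer to 0.

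Of the 20 growth RNAs, 13 hold at least 1 let-7 match. The list includes let-7 targets, as given above, so this count is no independent evidence. The matches that come first after the stop codon are shown for the 6 most abundant of the 13 in 10-week replicates 2 and 3, with the heptamer in capitals. They lie in the 3′ UTR on GRCm38, for Nr6a1 at chr2:38727720-38727741 (minus strand), Plagl2 at chr2:153229899-153229920 (minus), Zcchc3 at chr2:152413263-152413284 (minus), Hic2 at chr16:17259369-17259390 (plus), Arid3a at chr10:79953895-79953916 (plus) and Prtg at chr9:72912558-72912579 (plus).
Nr6a1: gagactgtggagcagCTACCTC
Plagl2: ttcagaaacacacttCTACCTC
Zcchc3: ctactttttattttaCTACCTC
Hic2: gtgctggtgactattCTACCTC
Arid3a: aaggcaagtttctttCTACCTC
Prtg: ccctctgctgaatagCTACCTC

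The levels of these 6 genes in 10-week replicate 1 were 5.70-fold (Nr6a1), 15.1-fold (Plagl2), 14.4-fold (Zcchc3), 20.6-fold (Hic2), 9.31-fold (Arid3a) and 8.71-fold (Prtg) below the mean of the other 10-week libraries. Genes of the list without a match were also lower there: Igf2 was 19.3-fold lower there, and Tnrc6a, Tnrc6b and Tnrc6c 6.57-, 8.41- and 6.03-fold lower. A match describes letters in the UTR and does not show a site in use.

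Of the 10 most abundant nuclear protein-coding genes of the pulldown, none changed by the test. Ptgds, a prostaglandin D synthase, was at 4429 and 3443 CPM at 6 weeks and at 2871, 2505 and 2400 CPM at 10 weeks (log2 -0.44, SE 0.97, limma adjusted p = 0.992). Coch, an extracellular protein of fibrocytes, was at 2278 and 1356 CPM against 1880, 1830 and 1384 CPM, and Apod, a lipocalin, at 1892 and 1142 against 1683, 1083 and 1027 CPM. Both had overlapping ages. In input Ptgds lay between 8607 and 14384 CPM, Coch between 3716 and 7569 CPM and Apod between 4877 and 8464 CPM, in each case above every IP library.

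The gene of the tagged protein was lower in every 10-week IP library without passing the test. Rpl22 was at 48.8 and 51.2 CPM in IP at 6 weeks and at 37.0, 34.6 and 34.0 CPM at 10 weeks (log2 -0.34, SE 0.64, limma adjusted p = 0.985), and was held within 2-fold in the fit of the 10 libraries. The 32 cytosolic ribosomal protein genes had a median of -0.02, the 20 nuclear genes of oxidative phosphorylation -0.20 and the 9 mitochondrially encoded messengers 0.18. Circadian clock genes (18) had a median of 0.05, and supporting cell markers (18) one of 0.01. Without 10-week IP replicate 1 these medians were -0.12, -0.31, 0.22, 0.16 and 0.06.

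Lists of several other cochlear cells had medians below 0 in the pulldown, with Gap43 as their sole call. The 11 Schwann cell markers had a median of -0.56 (-0.34 without 10-week IP replicate 1), with 7 non-overlapping and lower and none higher, where 28.8% and 14.9% of all genes were. The 13 spiral ganglion neuron markers had a median of -0.55 (-0.77 without that library), with 9 lower and none higher. The 9 erythroid markers had a median of -0.94 in IP (-0.71 without 10-week IP replicate 1) and of -0.72 in input. Hbb-bs, a haemoglobin chain whose reads can be shared with a near-identical copy, was at 91.0 and 85.2 CPM in IP at 6 weeks and at 18.1, 14.0 and 19.6 CPM at 10 weeks (log2 -2.15, SE 0.65, limma adjusted p = 0.164), while its input ages overlapped.

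Bone and cartilage markers (12) had a median of -0.59 in IP (-0.54 without 10-week IP replicate 1) and -0.35 in input. Col1a1, the collagen of bone and fibrous tissue, was named after its values were seen. It stood at 91.4 and 86.1 CPM in IP at 6 weeks and at 11.3, 17.4 and 18.9 CPM at 10 weeks, and in input at 97.6 and 70.1 against 17.5, 11.9 and 16.0 CPM. Its IP change of -2.29 (SE 0.60) did not pass (limma adjusted p = 0.0891) but passed with TMM scaling (adjusted p = 0.00495) and with edgeR (adjusted p = 0.00406). The ages did not overlap in either fraction.

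Setting IP against input of the same ages, no gene passed the limma test of the change of enrichment from 6 to 10 weeks, among 203 genes (1.08%) at an unadjusted p under 0.05, 84 higher (0.448%) and 119 lower (0.635%). edgeR called none and DESeq2 called 19, 17 of them higher. For Slc26a5 the enrichment changed by 3.02 on the log2 scale and for Chrna9 by 2.05, both with a limma adjusted p of 1. Both changes are relative to the median gene, whose enrichment changed by -0.42 as deposited. The test was of the change before that median was taken off.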

How the data were processed

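Each library has 1 table of CPM values deposited by the authors, in which every gene's reads are divided by all reads of that table. Reads were aligned to GRCm38, and TopHat was used, per the submitters' processing notes; the counting program is not given in the sources used here. Every column summed to 1000000 over 49671 genes and 5 entries that name no gene, and all values (100%) were whole multiples of the value of 1 read within 0.01, which gave whole reads. The entries naming no gene stayed in the CPM total and out of the tests. Symbols and coordinates came from GENCODE M21 (49326 of 49671 identifiers matched).

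The 18737 genes with 1 CPM or more in any 2 libraries entered the fit as log2(CPM + 1), a scale that understates changes of low genes. limma 3.58.1 in R 4.3.3 fitted 1 mean per age and fraction over all 22 libraries (12 residual degrees of freedom). Calls needed a p below 0.05 after Benjamini-Hochberg adjustment over the 18737 genes. edgeR 4.0.16 and DESeq2 1.42.0 were run on the recovered reads. Named are the 12 largest called changes each way among genes averaging 5 CPM or more at the higher age, no predicted gene or pseudogene symbol and non-overlapping ages, filled up with the smallest p-values. Added are called list members, the outer hair cell markers, Rpl22, the 10 most abundant genes and up to 2 abundant members of each of 34 lists. Other list members, and the pseudogene called in input, were picked after their values were seen. Libraries, lists and the rule were chosen with earlier results of these data known. P-values measure the spread between libraries, which may in part be technical.

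The same replicate number did not pair libraries across ages (r from -0.04 to 0.07), whereas IP and input of the same age and number deviated together (r from 0.11 to 0.35 in 5 pairs). Deviations were taken from group means, so both 6-week pairs give the same r of 0.35 and the pairs are not independent. The procedure was tried on reads simulated with a dispersion of 0.1, for IP at 10 against 6 weeks. Where 100 genes were changed 2-fold, 7% were recovered. Where 100 were changed 4-fold, 79% were. False calls numbered 6. A gene without a call can therefore still differ by 2-fold. 3′ UTRs were found for 99.5% of 14878 tested protein-coding genes. Alternatives were other pseudocounts, filters and scalings, other sets of libraries, a replicate block and leaving out each library; 2 were added after the data were seen. Values of some genes that the naming rule covers are not reported here.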

Additional observations from a re-analysis of the deposited data

Results flagged for a closer look

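In 3 named genes the IP libraries lay lower at 10 weeks than at 6 weeks while all input libraries lay higher, on CPM and also relative to each library's median gene. On CPM, 28.8% of all tested genes lay lower in IP in this way and 31.5% lay higher in input. The share of genes with both is not given here. The difference between the fractions did not pass the limma test of the change of enrichment in any of the 3 genes. The changes of enrichment below are relative to the median gene, which stood at -0.42, and the test was of the change as deposited. Otos, otospiralin of the fibrocytes, was at 1087 and 792 CPM in IP at 6 weeks and at 508, 561 and 596 CPM at 10 weeks, against 2600 and 1465 and then 3408, 3018 and 2836 CPM in input, a change of enrichment of -0.98 on the log2 scale. Rps3, a ribosomal protein gene, changed in enrichment by -0.71, from 337 and 249 to 158, 196 and 223 CPM in IP and from 354 and 243 to 430, 413 and 426 CPM in input. Calm3, a calmodulin gene, changed by -0.89, from 328 and 352 to 154, 231 and 226 CPM in IP and from 487 and 360 to 668, 548 and 638 CPM in input.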

How the results depend on the processing

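Counts of called genes followed the spread and the scale. In IP, against 10 genes as reported, 6 were called with a pseudocount of 0.25, 240 without a filter on low values, 17 with the filter on the 5 IP libraries, 56 with TMM scaling, 278 with quantile normalization, 2 with only the libraries compared, 2063 with the 10 libraries of 6 and 10 weeks, 2842 when those were TMM-scaled, 456 without the 3 low-yield libraries, 44 with edgeR and 348 with DESeq2. In input, against 18, the counts were 7 with a pseudocount of 0.25, 61 without a filter, 45 with quantile normalization, 307 with only the libraries compared, 208 with the 10 libraries, 245 with those TMM-scaled, 65 without the low-yield libraries, 9 with edgeR and 61 with DESeq2. For the change of enrichment, against 0, there were 86 without a filter and 19 with DESeq2. Genes held within 2-fold, 365 as reported, were 0 with a pseudocount of 0.25, 10325 without a filter, 58 with the filter on the IP libraries, 1812 with TMM scaling, 3958 with quantile normalization, 4576 with only the libraries compared, 6496 with the 10 libraries, 6333 with those TMM-scaled and 3344 without the low-yield libraries, and 0 were held within 1.5-fold. With a replicate block 8 genes were called in IP, 13 in input, 0 for the change of enrichment and 239 were held; a block by age and number, the pairing of IP with input, also gave 0 for the change of enrichment. Leaving out 1 library gave 2 to 8 called genes in IP, 3 to 12 in input, 0 for the change of enrichment and 24 to 175 held genes. The cause of these differences was not tested, beyond the fewer libraries or genes that a setting leaves.

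Of 2067 values of 109 named genes under the alternatives, none reversed a call, 56 lost one, 86 gained one and 41 changed sign without being called. Of the 10 called genes, Mir6236 and Gm24187 alone were called under all 19 alternatives. Medians of the 34 lists moved by less than the spread between replicates in 607 of 645 cases. With 2 libraries at 6 weeks and 3 at 10 weeks, the 95% interval of a gene's IP change reached a median of 1.38 log2 to either side.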
